A study of Mus musculus with 76 samples.

Results

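The comparison described here sets cultures at the axon stage against cultures at the maturation stage, both grown from mouse embryonic stem cells of the inbred strain C57BL/6J (B6) as part of a study of neurons from B6 and WSB/EiJ (WSB) cells. It uses 8 of the 70 libraries of the series, 4 at each stage, chosen by the condition named for each library in the deposited count table. The axon libraries (cultures 17, 21, 24 and 28) came from cells labelled ctrl/ctrl at the stage of axonal regrowth, the control for both the Dyrk1a inhibitor ID-8 and axotomy. The maturation libraries (cultures a, b, i and j) came from cells labelled ctrl, the control for ID-8. Both stages share the strain and the differentiation from stem cells through neural progenitors, and both were sequenced as polyadenylated RNA from a stranded kit. The labels give no culture day, no stem cell clone and no count of separate differentiations, so p-values measure the spread between these libraries. In the deposited table maturation cultures i and j carry one experiment name, and a and b a shared name that differs in its number, so n = 4 may stand for fewer separate differentiations. With each of these maturation pairs summed, 5010 genes were called in place of 7633, and 10 of the genes named here lost their call. The axon libraries stayed single in that fit, although cultures 24 and 28 were as alike (correlation 0.9922) as i and j (0.9905).

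The 4 axon libraries held 29300232 to 62173696 expected counts and 19261 to 20853 detected genes. The 4 maturation libraries held 29810486 to 33562809 and 19570 to 20796. In the deposited table the axon libraries are of batch 4 and the maturation libraries of batch 6, so stage and batch cannot be told apart in B6 cells. Libraries also stood in pairs: the correlation of log2 levels was 0.9779 to 0.9922 within the axon pairs 17 with 21 and 24 with 28 and the maturation pairs a with b and i with j. It was 0.947 or more within the axon group, 0.953 or more within the maturation group, and 0.861 to 0.907 between stages. Only in WSB cells did some axon libraries carry library numbers of the later series that the maturation libraries belong to, and those 4 libraries, 1 in each WSB axon group, are of batch 5. A fit over all 46 axon and maturation libraries with a term for the library-number series therefore estimates that term from them alone. The term is thus an offset of batch 5 in WSB axon cells, while the maturation libraries are of batch 6. Calls held or lost with the term do not separate stage from batch in B6 cells. Its values are given below as those with the library-number term. They carry their own oddities: with the term the replication-dependent histone genes had a median difference of 5.26, against -0.79 without it.

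During the growth of an axon, a neuron makes tubulin, microtubule-binding proteins and the motile growth cone at its tip, along with receptors that read guidance cues. As neurons mature these programmes are reduced, ion channels and synapses are adjusted, and glia that arise in the same cultures add their own transcripts. Neuronal cultures from stem cells can also retain dividing progenitors and cells of mesenchymal or vascular kind, and in bulk RNA a change in the number of cells of a type and a change in RNA per cell cannot be told apart.

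Of 16144 genes tested with the quasi-likelihood test of edgeR, 3925 (24.3%) were higher and 3708 (23%) were lower in axon libraries, 47.3% in all, at an adjusted p under 0.05. Of these, 2232 (13.8%) were higher and 1856 (11.5%) lower by 2-fold or more. For 4001 genes (24.8%) every axon library was above every maturation library, and for 3762 (23.3%) every one was below. The median difference over all tested genes was -0.03 on the log2 scale of counts per 1000000 (CPM). All counts of list members below stand against these shares, and all differences are axon minus maturation with standard errors after ±. Standard deviations follow ± for levels, with n = 4 for each stage.

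The gene with the smallest p among those higher at the axon stage was Dcx (ENSMUSG00000031285, chromosome X, 143855842 to 143933311, GRCm38), which encodes doublecortin, a microtubule-binding protein of young neurons. Its level was 682, 778, 473 and 542 CPM in axon libraries, against 13.4, 10, 12.3 and 11.8 CPM in maturation libraries. The stages lie far apart, and the log2 difference was 5.70 ± 0.22 (adjusted p = 5.51e-06). The transcripts next in order of p included Lypd1, a modulator of nicotinic receptors (2.52), Dact1, a regulator of Wnt signalling (2.72), and Kit, the receptor of stem cell factor (2.63). They also included Gjd2, which encodes the neuronal gap junction protein connexin 36 (3.50), Lmnb1, a lamin of the nuclear envelope (3.04), Pole, a DNA polymerase subunit (2.67), and Glra2, a glycine receptor subunit of immature neurons (2.61). Among the most abundant called genes that were higher by 2-fold or more stood Tuba1a, Tubb2b and Tubb5, all tubulins, with Map1b, a microtubule-associated protein, at 3584 ± 1690 CPM in axon libraries and 1544 ± 241 CPM in maturation libraries.

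The smallest p among genes lower at the axon stage belonged to Aldh1a1 (ENSMUSG00000053279, chromosome 19, 20492715 to 20643465), an enzyme that makes retinoic acid. Its level was 9.08, 7.8, 7.73 and 7.86 CPM in axon libraries, against 204, 209, 249 and 294 CPM in maturation libraries. No axon library came near a maturation library, and the difference was -4.88 ± 0.17 (adjusted p = 5.43e-06). Fth1, the heavy chain of the iron store ferritin, had 500.1, 536, 526 and 502 CPM, against 3686, 3576, 3344 and 3563 CPM, in the same order of stages, and Plin4, a coat protein of lipid droplets, had 0.501, 0.325, 0.794 and 1.06 CPM, against 79.7, 82.6, 89.5 and 95.1 CPM. Other genes of this order were Chchd10, a mitochondrial protein (-2.21), Anxa1, an anti-inflammatory annexin (-2.82), Klf9, a glucocorticoid-responsive transcription factor (-3.25), and Tns1, a focal adhesion protein (-2.50). The circadian output factor Dbp (-3.13) and the clock repressor Nr1d1 (-1.75) were among the 15 as well. With the library-number term these 2 differences were -1.17 (adjusted p = 0.0952) and 0.16 (adjusted p = 0.791), so neither was called there.

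**Figure D1:**
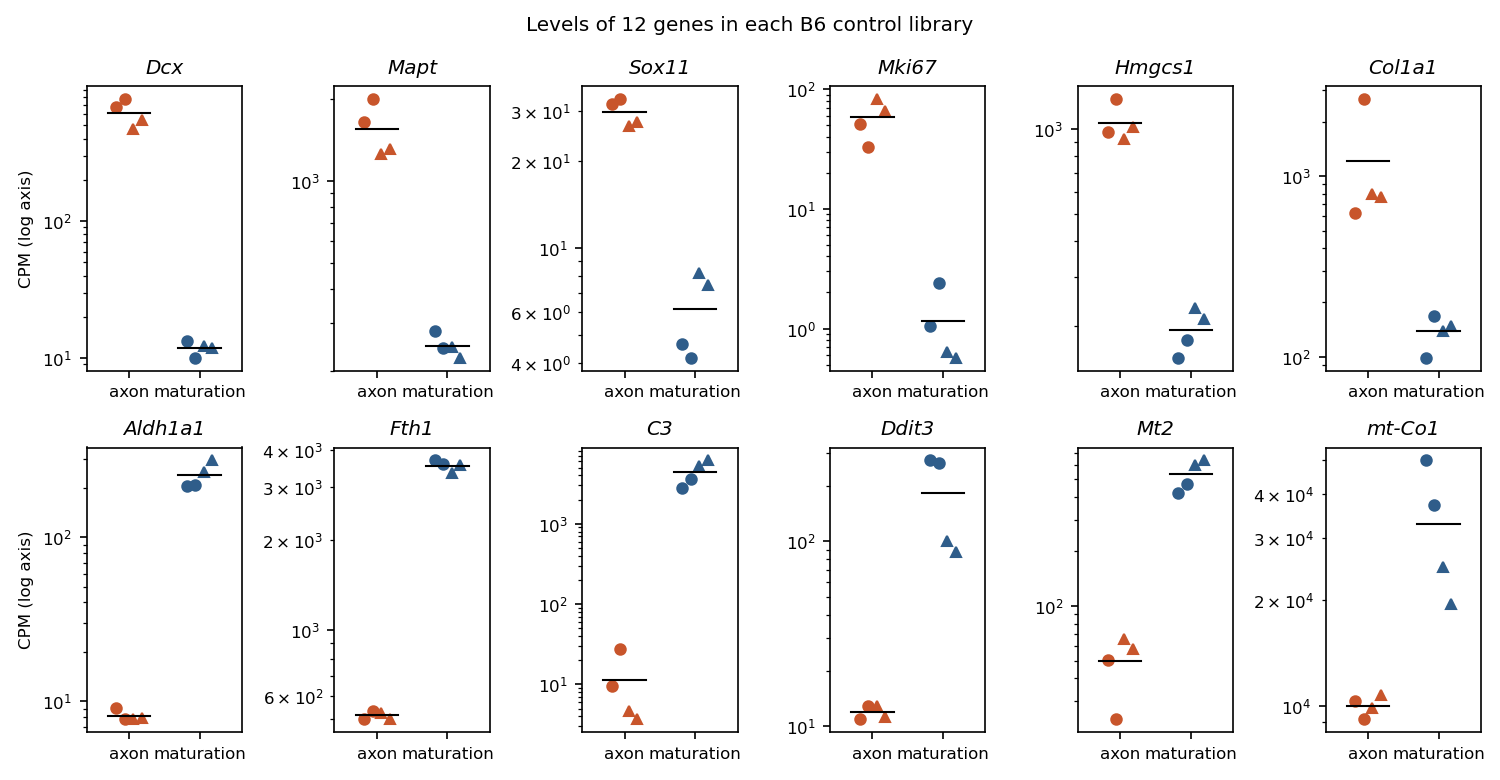
Level of 12 genes in each B6 control library, in CPM of TMM-scaled totals on log axes, axon libraries left and maturation libraries right, with circles for cultures 17, 21, a and b, triangles for 24, 28, i and j, and a line at each mean. Dcx, Mapt, Sox11, Mki67, Hmgcs1 and Col1a1 lie higher in all 4 axon libraries, and the other 6 genes lie lower in all 4.

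Genes of axon growth were nearly all higher at the axon stage. Of 27 tested members of the axon growth and growth cone list, 25 were higher and 0 lower in axon libraries, with a median difference of 1.55. The collapsin response mediators, which bind tubulin and relay semaphorin signals, were among the members with the smallest p: Crmp1 differed by 3.39, Dpysl5 by 3.66, Dpysl2 by 1.88 and Dpysl3 by 3.20. Tubb2b, a beta tubulin of developing neurons, had 2428, 3089, 1747 and 1892 CPM in axon libraries, against 219.7, 231, 195 and 223 CPM in maturation libraries, and Tuba1a, the main embryonic alpha tubulin, averaged 6359 ± 1387 CPM in axon libraries and 1447 ± 184 CPM in maturation libraries. The difference of Tubb2b was 3.40 ± 0.21 (adjusted p = 2.25e-05). Gap43, a membrane protein of growth cones, differed by 1.20 ± 0.29 (adjusted p = 0.00854), and the guidance receptor Robo2 by 2.20. The members without a call were Nfasc, which organises the axon initial segment (-0.23), and Kif5c, a kinesin motor (786 against 788 CPM). In the fit with the library-number term 16 members were higher and 0 lower, against 18.7% and 21.8% of 18543 genes tested in that fit. The median there was 1.57, while Gap43 stood at 0.02.

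Of 20 pan-neuronal markers, 14 were higher and 1 lower, with a median of 1.26, and the summed level of the list was 9866 to 15270 CPM in axon libraries and 4150 to 5990 CPM in maturation libraries. Mapt, which encodes the microtubule protein tau, had 1655, 2007, 1254 and 1313 CPM in axon libraries, against 279, 243, 244 and 223 CPM in maturation libraries. Tubb3, the neuronal beta tubulin, differed by 2.27 ± 0.27, the intermediate filament gene Ina by 2.08 ± 0.19, and the RNA-binding protein gene Elavl3 by 1.43 ± 0.21. The lower member was Nefh, the heavy neurofilament chain that appears late in axon maturation, at 60.2 ± 3.21 CPM in axon libraries and 97.2 ± 9.58 CPM in maturation libraries. Nefl, the light neurofilament chain, and Nefm, the medium one, differed by 0.63 ± 0.25 and 0.45 ± 0.25 without passing the test, and Map2, a dendritic microtubule protein, by 0.61 ± 0.19 (adjusted p = 0.0292). Leaving out any one of cultures 17, 21, a and b ended the call of Map2, with 0.48 to 0.60 and adjusted p-values of 0.0641 to 0.0806. In the fit with the library-number term 5 of the markers were higher, and 5 of the 14 higher calls held.

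Factors of neuronal commitment were nearly all higher at the axon stage: 18 of 19 tested members, with a median of 1.99. Sox11 and Sox4, SoxC factors that turn on genes of newborn neurons, differed by 2.27 ± 0.24 and 2.45 ± 0.15. Neurod1, a proneural helix-loop-helix factor, had 17, 14.6, 3.68 and 4.16 CPM in axon libraries, against 0.455, 0.233, 0.845 and 0.6 CPM in maturation libraries, and its relative Neurod6 averaged 8.3 ± 2.87 CPM in axon libraries and 0.475 ± 0.337 CPM in maturation libraries. Dll1, the Notch ligand that neuronal precursors present, differed by 1.82 ± 0.21. The member without a call was Myt1 (-0.08), a zinc finger factor, while its relative Myt1l, a repressor of fates other than neuronal, differed by 1.52 ± 0.27. The proneural genes Neurog1 and Neurog2 were below the filter on low counts. With the library-number term 13 members were higher and 0 lower, with a median of 2.48.

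Transcription factors that mark neuron subtypes followed in part, with 13 of 23 tested members higher, 0 lower and a median of 1.24. Those with the smallest p were factors of sensory, brainstem and autonomic neurons. Pou4f1, known from sensory neurons, had 35, 27.1, 18.6 and 22.5 CPM in axon libraries, against 6.18, 4.85, 3.81 and 3 CPM in maturation libraries, and its paralogue Pou4f2 averaged 15.5 ± 8.79 CPM in axon libraries and 0.985 ± 0.457 CPM in maturation libraries. Tlx3, a factor of glutamatergic spinal and sensory neurons, differed by 3.33 ± 0.44, Lmx1b, a factor of serotonergic neurons, by 2.10 ± 0.28, and Phox2a, a factor of noradrenergic neurons, by 4.36 ± 0.44. Bcl11b, of deep layer cortical neurons, differed by 2.19 ± 0.34, whereas the cortical factor Tbr1 (0.624 against 0.636 CPM) and the motor neuron factor Isl1 (0.645 against 0.65 CPM) were not called and were low at both stages.

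**Figure D2:**
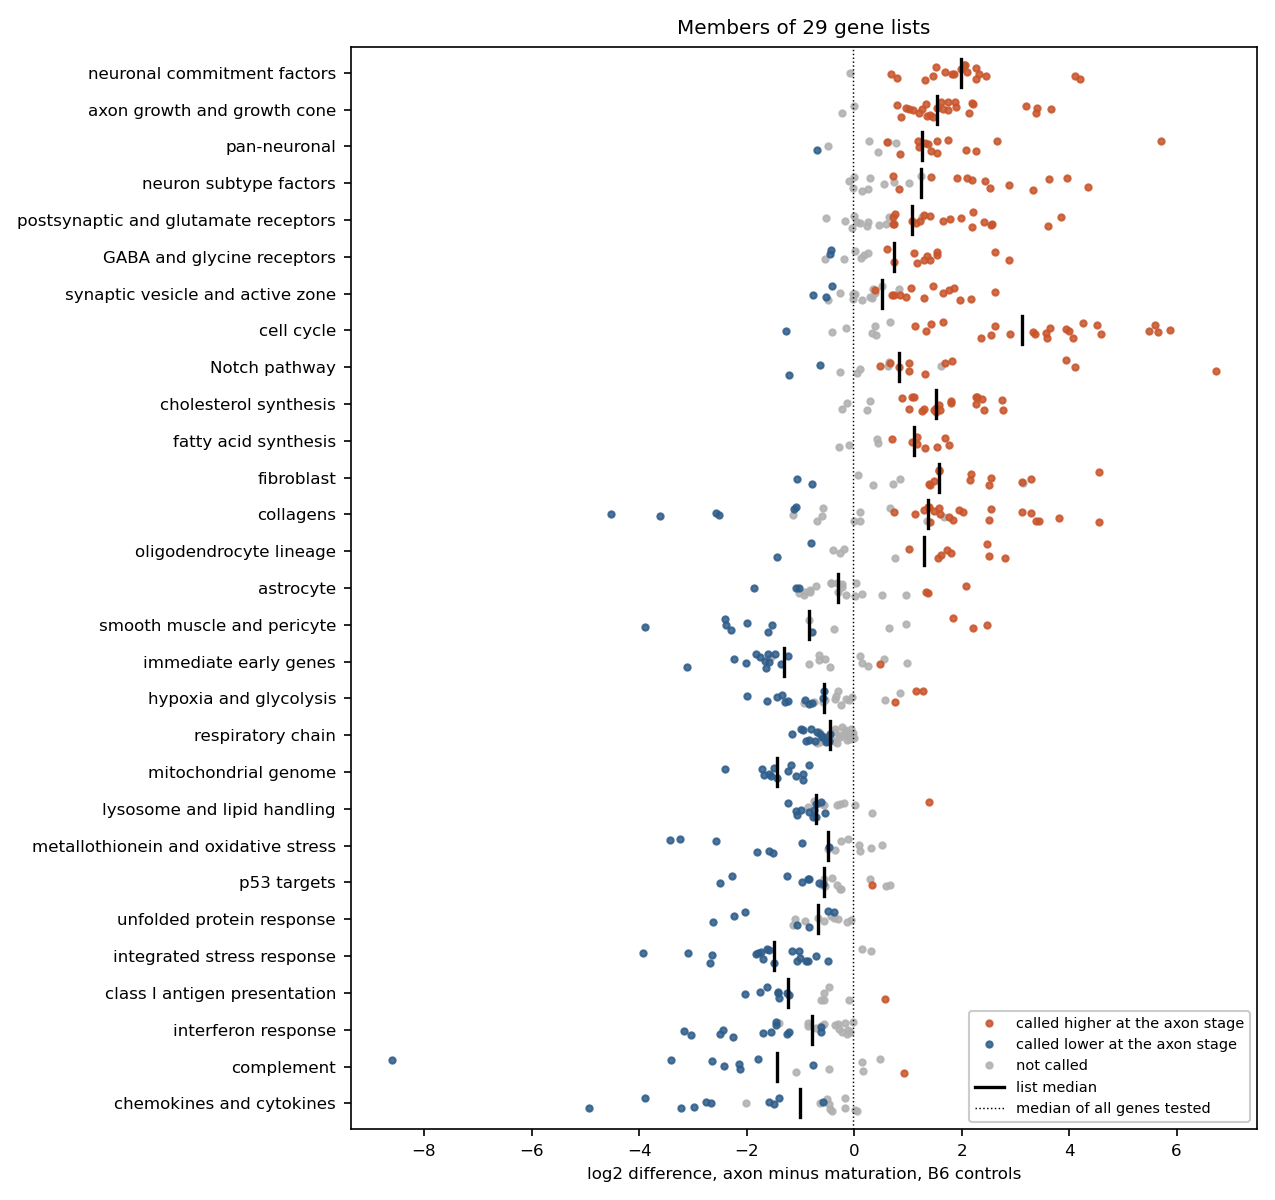
Log2 difference (axon minus maturation, B6 controls) of every tested member of 29 gene lists, one row a list, with orange for genes called higher, blue for genes called lower, grey for genes not called and a black bar at each list median. Commitment factors, axon growth genes, cell cycle genes and sterol genes lie mostly right of the dotted all-gene median of -0.03, and complement, stress and mitochondrial genes lie mostly left.

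Glutamate receptor and postsynaptic genes were also higher rather than lower: 19 of 31 members were higher and 0 lower, with a median of 1.07. The smallest p belonged to Grik1, a kainate receptor subunit (2.56 ± 0.21), and the largest difference to Grm2, a metabotropic receptor (3.85 ± 0.53). Grin3a, an NMDA receptor subunit of early postnatal brain, had 116.2, 152, 72.3 and 77.2 CPM in axon libraries, against 16.7, 17.1, 29.4 and 27.6 CPM in maturation libraries. Grin2d and Grin2b, NMDA receptor subunits of embryonic and early postnatal brain, differed by 2.54 ± 0.28 and 1.78 ± 0.36, while the obligatory subunit Grin1 differed by 0.06 ± 0.27 without a call. Grm5, a metabotropic receptor, differed by 2.42 ± 0.29, and Grm3, a metabotropic receptor also of glia, by 3.60 ± 0.45. The AMPA receptor subunits Gria1 and Gria2 (-0.16 and 0.24) and the scaffold Dlg4, known as PSD-95 (0.11), were not called. In the fit with the library-number term 14 were higher and 0 lower, with a median of 0.73. Among inhibitory receptor genes 11 of 19 were higher and 2 lower, with a median of 0.75. Most of these calls were not seen with the library-number term, where 4 were higher and 1 lower, with a median of -0.09, and the ID-8 cultures had 6 higher and 4 lower. Glra2 had 71.5, 71.5, 77.7 and 90.4 CPM in axon libraries, against 14.5, 13.7, 11.8 and 10.8 CPM in maturation libraries, whereas Glra1, the glycine receptor subunit of mature spinal cord, differed by -0.55 ± 0.35 with no call. Gabra5, a GABA-A receptor subunit abundant in embryonic brain, differed by 2.89 ± 0.29.

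Genes of the synaptic vesicle and active zone were divided. Of 29 tested, 14 were higher, 3 lower and 12 not called, with a median of 0.52. Syt1, the calcium sensor of fast release, had 590.2, 532, 252 and 281 CPM in axon libraries, against 99.5, 95.2, 117.7 and 107.5 CPM in maturation libraries, and Sv2b, a vesicle glycoprotein, differed by 2.61 ± 0.25. The lower members were Syt4, a dense core vesicle protein (-0.52 ± 0.11), Vamp1, a vesicle SNARE (-0.76 ± 0.18), and Cplx1, a complexin (-0.42 ± 0.12). Snap25, the SNARE of the presynaptic membrane, had 335, 394, 311 and 383 CPM in axon libraries, against 721, 669.5, 325 and 265 CPM in maturation libraries. Its maturation libraries a and b lay above every axon library and i and j lay within or below the axon range, and the difference of -0.48 ± 0.32 was not called (adjusted p = 0.243). Syp, the vesicle protein synaptophysin, averaged 667 ± 163 CPM in axon libraries and 680.2 ± 141 CPM in maturation libraries. Under that term 6 of the vesicle genes were higher and 4 lower.

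Genes of dividing cells were higher at the axon stage. Of 30 cell cycle genes, 23 were higher and 1 lower, with a median of 3.12. Mki67, a nuclear protein of cycling cells, had 51.3, 32.8, 83 and 65.8 CPM in axon libraries, against 1.04, 2.39, 0.634 and 0.567 CPM in maturation libraries, a difference of 5.65 ± 0.52 (adjusted p = 8.85e-05). Top2a, the topoisomerase of chromosome segregation, averaged 85.4 ± 45 CPM in axon libraries and 1.47 ± 0.793 CPM in maturation libraries, and Cdk1, the mitotic kinase, 23.6 ± 13 CPM in axon libraries and 0.974 ± 0.232 CPM in maturation libraries. The replication licensing gene Mcm6 differed by 2.90 ± 0.17, and Cdc20, an activator of mitotic exit, by 3.99 ± 0.34. The exception was Ccnd1, cyclin D1, at 145 ± 45.9 CPM in axon libraries and 349 ± 52.7 CPM in maturation libraries, and Pcna, the polymerase clamp, differed by 0.40 ± 0.23 without a call. Summed over the list the level was 814 to 1981 CPM in axon libraries and 1206 to 1382 CPM in maturation libraries, and Ccnd1 and Ccnd2, both D-type cyclins, averaged 145 against 349 CPM and 579.5 against 775 CPM. Under the library-number term 22 members were higher and the median was 3.26.

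Notch genes were higher as well: 11 of 19 Notch pathway genes were higher and 2 lower. Hes5, a Notch target of radial glia, had 2.34, 7.8, 0.794 and 0.915 CPM in axon libraries, against 0.0325, 0.0665, 0 and 0 CPM in maturation libraries, at or near 0 in maturation libraries. Nrarp, a feedback inhibitor of Notch, differed by 4.11 ± 0.36, whereas Hey1, another target, was lower (-1.22 ± 0.31). General progenitor and radial glia markers were mostly not called, 14 of 19. Sox2 averaged 81.1 ± 22 CPM in axon libraries and 80.3 ± 38.9 CPM in maturation libraries, and Nes, the intermediate filament nestin, was lower at the axon stage (-1.06 ± 0.27). Their summed level was 2697 to 4139 CPM in axon libraries and 2209 to 5500 CPM in maturation libraries.

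Cholesterol synthesis was higher as a group at the axon stage. Of 24 genes of the pathway and its control, 20 were higher and 0 lower, with a median of 1.52. Hmgcs1, the enzyme that commits acetyl groups to sterols, had 973, 1276, 923 and 1012 CPM in axon libraries, against 155, 179.5, 232 and 213 CPM in maturation libraries. Fdps, which makes farnesyl diphosphate, differed by 2.76 ± 0.27, and Dhcr7, which completes cholesterol, by 2.38 ± 0.20. Srebf2, the transcription factor of the pathway, differed by 1.08 ± 0.22. Msmo1, a methyl sterol oxidase, differed by -0.23 ± 0.23 and was not called. The promoter of Hmgcs1 is shown because its transcript is the member with the smallest p. Capitals mark the CCAAT box bound by NF-Y, here on the other strand as ATTGG (chr13:119690171-119690320, plus strand, RefSeq on GRCm38.p6).
Hmgcs1: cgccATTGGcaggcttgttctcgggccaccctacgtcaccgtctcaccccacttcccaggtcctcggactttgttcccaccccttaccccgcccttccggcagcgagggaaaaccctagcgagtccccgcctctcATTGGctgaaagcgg
Searched on both strands of the 250 bases before each start, CCAAT was found in all 16 members with a promoter sequence, and in 37.5% of 27025 genes. A match describes the sequence only.

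The fatty acid genes went the same way in part, with 8 of 12 higher and 0 lower. Fasn, fatty acid synthase, averaged 563 ± 299.8 CPM in axon libraries and 166 ± 20.6 CPM in maturation libraries, Acly, which supplies its acetyl-CoA, 552 ± 122 CPM in axon libraries and 189.5 ± 25 CPM in maturation libraries, and the elongase gene Elovl6 differed by 1.70 ± 0.13. Scd2, the desaturase of brain and one of the most abundant higher genes, averaged 2821 ± 345 CPM in axon libraries and 1252 ± 612 CPM in maturation libraries. Its call was lost without culture b, with a difference of 1.01 (adjusted p = 0.0532). With the library-number term 12 sterol genes were higher and 1 lower, with a median of 0.89, and 9 fatty acid genes were higher and 0 lower.

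Fibroblast genes were higher in B6 axon libraries. Of 19 members, 12 were higher and 2 lower, with a median of 1.57, and their sum was 3162 to 9796 CPM in axon libraries and 1393 to 2252 CPM in maturation libraries. Col1a1, a chain of type I collagen, had 623, 2671, 795 and 763 CPM in axon libraries, against 98.7, 168, 139 and 149 CPM in maturation libraries. All axon libraries were higher, with culture 21 well above the other 3, and the difference was 3.13 ± 0.49 (adjusted p = 0.00114). Col3a1, of type III collagen, differed by 2.54 ± 0.46, Col6a3, of type VI, by 4.56 ± 0.75, and the matrix protein gene Fbln2 by 2.15 ± 0.18. The exceptions were Fn1, fibronectin (-1.07 ± 0.16), and Pdgfrb, a receptor of pericytes and fibroblasts (-0.78 ± 0.25), while Dcn, the proteoglycan decorin, was not called (216 against 206 CPM). Leaving out any one of cultures 17, 24, 28, i and j ended the call of Pdgfrb, with -0.79 to -0.62 and adjusted p-values of 0.063 to 0.082. Under the library-number term 13 were higher and 0 lower, with a median of 2.39, and the ID-8 cultures had 13 higher and 1 lower.

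Basement membrane collagens split the axon libraries. Col4a1, of type IV collagen, had 627, 582, 3766 and 3821 CPM in axon libraries, against 376, 534, 676 and 697 CPM in maturation libraries, so that cultures 24 and 28 held most of it and culture 21 lay within the maturation range. Its difference was 1.95 ± 0.65 (adjusted p = 0.0346), and leaving out any one of cultures 24, 28, a, b, i and j ended the call, with adjusted p-values of up to 0.0883. Col4a3 and Col4a4, chains of the specialised type IV network known from kidney and lung, were instead lower (-4.53 ± 0.52 and -3.60 ± 0.34). In all 21 of 37 collagen genes were higher and 6 lower. Endothelial genes Tek and Kdr, both vascular receptors, and Cdh5, a vascular cadherin, were the 3 called of 11, and all were higher (4.42, 2.31 and 2.36). That share is near the 24.3% of all tested genes called higher. The uncalled members ranged from -0.58 (Eng) to 1.81 (Esam), and only 1 of the 11 was higher without overlap of the stages. The list median of log2 levels minus each gene's mean was 0.69 in culture 24 and 0.56 in culture 28. It was -0.08 in culture 17 and -0.51 in culture 21, against -0.59 to 0.14 in maturation libraries.

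Smooth muscle and pericyte genes were more often lower than higher in B6 controls. Of 15, 8 were lower and 3 higher, and their sum was 250.4 to 1172 CPM in axon libraries and 2607 to 5203 CPM in maturation libraries. Acta2, smooth muscle actin, had 357, 80.3, 449.7 and 388 CPM in axon libraries, against 1828, 2180, 1109 and 1146 CPM in maturation libraries. Tagln, an actin-binding protein of the same cells, differed by -2.39 ± 0.60, and Myh11, their myosin heavy chain, by -3.90 ± 0.54. The members that were higher, Cspg4, Abcc9 and Rgs5, are markers of pericytes, and Cspg4 is also a marker of oligodendrocyte precursors (2.47, 2.21 and 1.83). Pericyte genes had no common direction, as Pdgfrb, a receptor of pericytes and fibroblasts, was lower (-0.78). Kcnj8 (0.66) and Des (0.97) were not called. The direction of the list was not shared by the ID-8 cultures, with 3 higher and 1 lower and a median of 0.30, where Acta2 stood at 0.30 (adjusted p = 0.531). Under the library-number term 5 were higher and 3 lower, with a median of -0.65, and Acta2 stood at -1.71 (adjusted p = 0.129). In WSB controls there were 0 higher and 9 lower.

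Matrix genes differed between strains. In WSB controls, where 19.7% of 16087 genes were higher and 18.8% lower in axon libraries, 0 fibroblast genes were higher and 5 lower, with a median of -0.94. The test of the difference between strains called 12 collagen genes with a lower and 1 with a higher stage difference in WSB, against 3.25% and 1.55% of 17086 genes. For Col1a1 the stage difference was -0.83 ± 0.84 in WSB, and WSB minus B6 was -3.96 ± 1.07 (adjusted p = 0.0469). For Col4a1 these values were -0.96 ± 0.28 and -2.90 ± 0.74 (adjusted p = 0.0362). WSB axon culture 13 stood apart, with Col1a1 at 11.25 CPM of its unscaled library total, against 451 to 541.2 CPM in the other 3 WSB axon libraries and 364.6 to 1156 CPM in WSB maturation libraries. Without it WSB minus B6 was -3.55 for Col1a1 (adjusted p = 0.0088) and -2.72 for Col4a1 (adjusted p = 0.044), and 15 collagen genes were called lower and 1 higher. In CPM of unscaled library totals, the fibroblast sum was 3150 to 9259 in B6 axon and 1331 to 2264 in B6 maturation libraries, and 240.3 to 2860 in WSB axon and 3044 to 6424 in WSB maturation libraries. The part that a different number of fibroblasts plays in these genes was not tested.

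**Figure D3:**
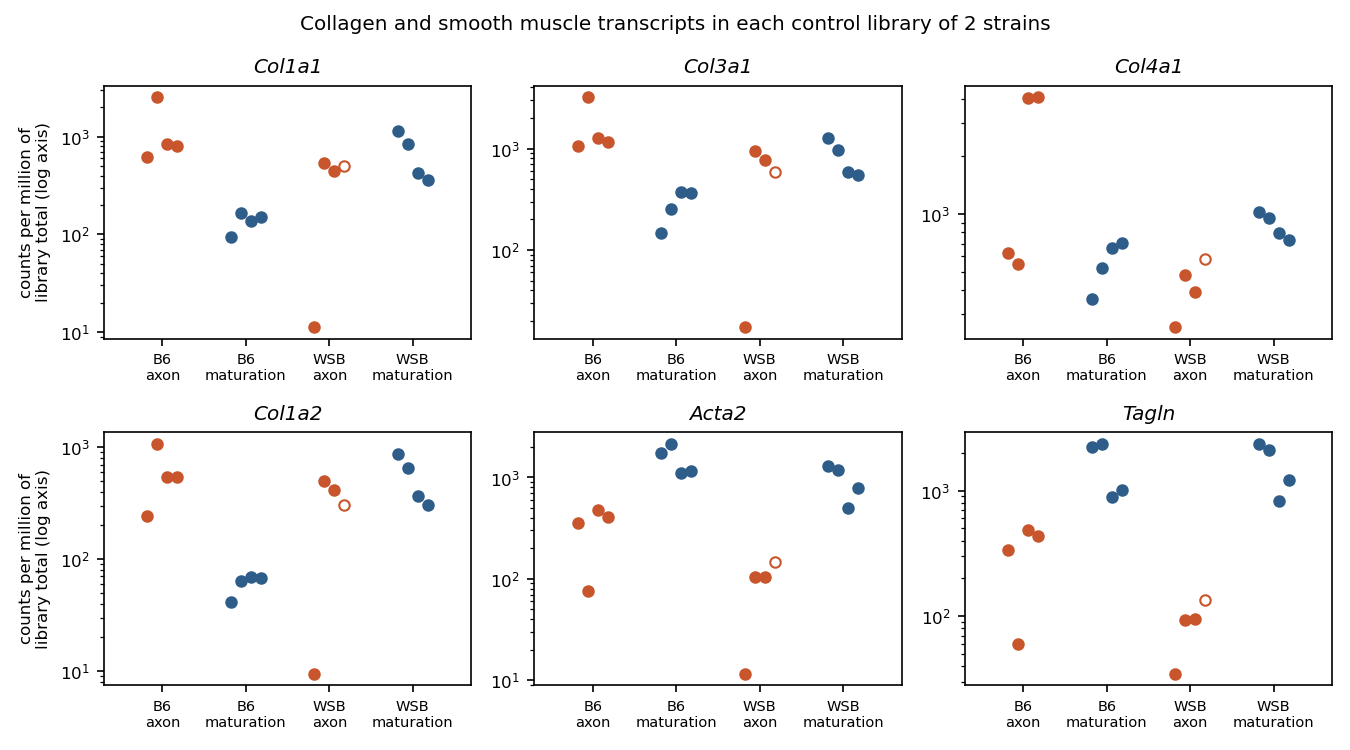
Level of 4 collagen and 2 smooth muscle genes in each control library of B6 and WSB cells, in CPM of the unscaled library total on log axes, with an open circle for the 1 WSB axon library of the later library-number series. Col1a1, Col1a2 and Col3a1 are higher in all 4 B6 axon libraries than in the B6 maturation libraries, and the same 3 genes overlap between the WSB stages.

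Stress genes were lower at the axon stage. Of 21 genes of the integrated stress response, in which ATF4 turns on genes of amino acid supply when translation is held back, 19 were lower and 0 higher, with a median of -1.49. Ddit3, the factor CHOP, had 10.9, 12.9, 12.9 and 11.2 CPM in axon libraries, against 274, 266, 100.1 and 87.3 CPM in maturation libraries. Cultures a and b held more than i and j, and all 4 lay above every axon library; the difference was -3.93 ± 0.42 (adjusted p = 0.000166). Chac1, which degrades glutathione, had 10.9, 13.9, 8.66 and 9.95 CPM in axon libraries, against 120.1, 116.8, 65.5 and 65 CPM in maturation libraries. Atf4 itself differed by -1.58 ± 0.23, Asns, asparagine synthetase, by -1.16 ± 0.17, and Trib3, a pseudokinase that restrains the response, by -2.64 ± 0.45. The members without a call were Ddit4, an inhibitor of mTORC1 (0.14), and Slc7a11, the cystine transporter (0.31). The promoters of Chac1 and Nupr1, a stress factor that differed by -2.68 ± 0.45, are shown with the composite site of ATF4 and a C/EBP partner, TGATGNAA, in capitals, in both on the other strand as TTGCATCA. They lie at chr2:119351042-119351191 on the plus strand and chr7:126625471-126625620 on the minus strand.
Chac1: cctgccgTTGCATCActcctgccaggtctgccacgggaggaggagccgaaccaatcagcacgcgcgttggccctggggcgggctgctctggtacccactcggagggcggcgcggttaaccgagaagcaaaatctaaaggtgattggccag
Nupr1: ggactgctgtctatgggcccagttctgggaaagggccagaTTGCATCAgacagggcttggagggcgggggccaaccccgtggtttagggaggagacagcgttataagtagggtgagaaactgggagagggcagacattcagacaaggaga
The site was found in 7 of 19 members with a promoter sequence and in 3.91% of 27025 genes.

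Under the library-number term 11 stress response genes were lower and 0 higher, with a median of -1.13. In WSB controls 3 were lower, with a median of -0.41, and for Ddit3 the WSB stage difference was -0.92 ± 0.93 (adjusted p = 0.456). The test between strains called 1 of the 21 genes with a higher and 0 with a lower difference in WSB. The unfolded protein response of the endoplasmic reticulum was lower in part, 7 of 17, with no member higher. Its cochaperone gene Dnajb9 differed by -2.23 ± 0.27 and Herpud1, of protein degradation there, by -2.04 ± 0.31, while the chaperone Hspa5, known as BiP, had 544, 553, 728 and 725 CPM in axon libraries, against 1971, 2315, 652 and 659 CPM in maturation libraries. Cultures a and b lay above every axon library and i and j within the axon range, and the difference of -1.13 ± 0.43 was not called (adjusted p = 0.0549). The median of this list, as log2 levels minus each gene's mean, was 0.58 and 0.68 in cultures a and b. It was -0.14 and -0.24 in i and j, and -0.45 to -0.19 in axon libraries. In ID-8 cultures 3 of its 17 members were higher and 2 lower, with a median of 0.03. Under the library-number term 3 were higher and 4 lower.

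Metal and redox genes were lower too: 8 of 16 members and 0 higher. Mt2, a metallothionein that binds zinc and copper, had 50.5, 23.7, 66 and 57.8 CPM in axon libraries, against 419, 470.3, 602 and 635 CPM in maturation libraries, and Mt1 averaged 50.6 ± 14.7 CPM in axon libraries and 476 ± 83.1 CPM in maturation libraries. Hmox1, which breaks down haem, had 29.6, 34.2, 27.6 and 28.6 CPM in axon libraries, against 214, 222, 139 and 139 CPM in maturation libraries, a difference of -2.57 ± 0.20. Gpx4, which reduces lipid peroxides, differed by -1.58 ± 0.26, whereas Nqo1, an NRF2 target, differed by -0.49 ± 0.27 with no call. Of 19 p53 targets 8 were lower and 1 higher, among them Cdkn1a, the cell cycle inhibitor p21 (-0.84 ± 0.20), and Fas, a death receptor (-2.49 ± 0.37). The lysosomal proteases Ctsb and Ctsd were lower (-1.08 and -0.99), with 11 of 21 genes of lysosome and lipid handling lower and 1 higher.

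Complement held the largest difference of any gene named here. C3, the central component (ENSMUSG00000024164, chromosome 17, 57203970 to 57228136), had 9.59, 27.9, 4.63 and 3.66 CPM in axon libraries, against 2806, 3579, 5159 and 6133 CPM in maturation libraries. Maturation libraries exceeded axon libraries by a wide margin and all 4 of them were high, with i and j above a and b; the difference was -8.60 ± 0.83 (adjusted p = 0.000105). Of 14 complement genes 8 were lower and 1 higher at the axon stage. C1ra and C1s1, the proteases of the first component, differed by -2.14 ± 0.18 and -2.13 ± 0.19, and Cfb, factor B of the alternative pathway, by -3.40 ± 0.38. C4b, the fourth component, averaged 30.5 ± 9.65 CPM in axon libraries and 27.6 ± 12.6 CPM in maturation libraries, with no call. In ID-8 cultures 3 of 13 tested members were higher and 3 lower, against 21.2% and 20.2% of all genes tested there. In WSB controls 0 of 14 were higher and 11 lower, and with the library-number term 2 were higher and 8 lower. The genes of the C1q chains, which microglia make, were not tested, and C1qa and C1qc had no count in any of the 8 libraries. Tyrobp, a signalling adaptor of microglia, was also at 0 in all 8, and the summed level of the microglia and macrophage list was 32.6 to 75.8 CPM in axon libraries and 108.2 to 142 CPM in maturation libraries.

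Genes of the interferon response were lower for 13 and higher for 0 of 28 tested members. Ifit3, an antiviral protein induced by interferon, had 4.34, 4.62, 10.6 and 10.2 CPM in axon libraries, against 75.2, 81.9, 58.8 and 50.8 CPM in maturation libraries, and Gbp3, a guanylate-binding GTPase, had 2.86, 2.56, 6.94 and 7.74 CPM in axon libraries, against 25.4, 27.2, 20.6 and 22.4 CPM in maturation libraries. Bst2, which tethers viruses, differed by -2.49 ± 0.64, whereas Isg15 (-1.40), a ubiquitin-like modifier, was not called. Class I antigen genes were lower for 8 of 14 and higher for 1, with B2m, the light chain, at 90.9 ± 16.9 CPM in axon libraries and 243 ± 35.8 CPM in maturation libraries. The promoters of Ifit3 and Gbp3 are shown because both genes were called, and capitals mark the interferon-stimulated motif, a pair of GAAA blocks with any 2 bases between, here on the other strand as TTTC. They lie at chr19:34583369-34583518 and chr3:142559894-142560043, both on the plus strand, and the 2 matches in Gbp3 overlap.
Ifit3: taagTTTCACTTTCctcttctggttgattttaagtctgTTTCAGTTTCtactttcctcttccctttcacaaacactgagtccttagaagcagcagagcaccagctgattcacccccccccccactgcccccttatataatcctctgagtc
Gbp3: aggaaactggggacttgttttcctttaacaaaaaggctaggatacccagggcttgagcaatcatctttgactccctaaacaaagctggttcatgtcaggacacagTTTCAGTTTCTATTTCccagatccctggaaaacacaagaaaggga
The motif was found in 13 of 23 members with a promoter sequence and in 3.46% of 27025 genes.

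Chemokines and cytokines were lower for 10 and higher for 0 of 20. Ccl2, which attracts monocytes, had 5.94, 19.9, 9.58 and 11 CPM in axon libraries, against 172, 159.6, 45 and 54 CPM in maturation libraries. Lif, a cytokine released after nerve injury, differed by -2.76 ± 0.49, and Csf1, which sustains microglia, by -1.40 ± 0.19. In WSB controls 20 interferon genes were lower and 0 higher, with a median of -2.46. The test between strains called 11 with a lower and 0 with a higher difference in WSB. Bst2 was not among the named genes that passed that test, and its WSB stage difference was -5.38 ± 0.53. In B6 cultures with ID-8, where 21.2% of 16477 genes were higher and 20.2% lower in axon libraries, 8 interferon genes were higher and 6 lower. The B6 control direction of this list was therefore not seen in the ID-8 cultures, and the difference between them was not tested. Of the 14 class I antigen genes 4 were higher and 2 lower in ID-8 cultures, with a median of -0.315. In WSB controls 0 of them were higher and 9 lower.

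**Figure D4:**
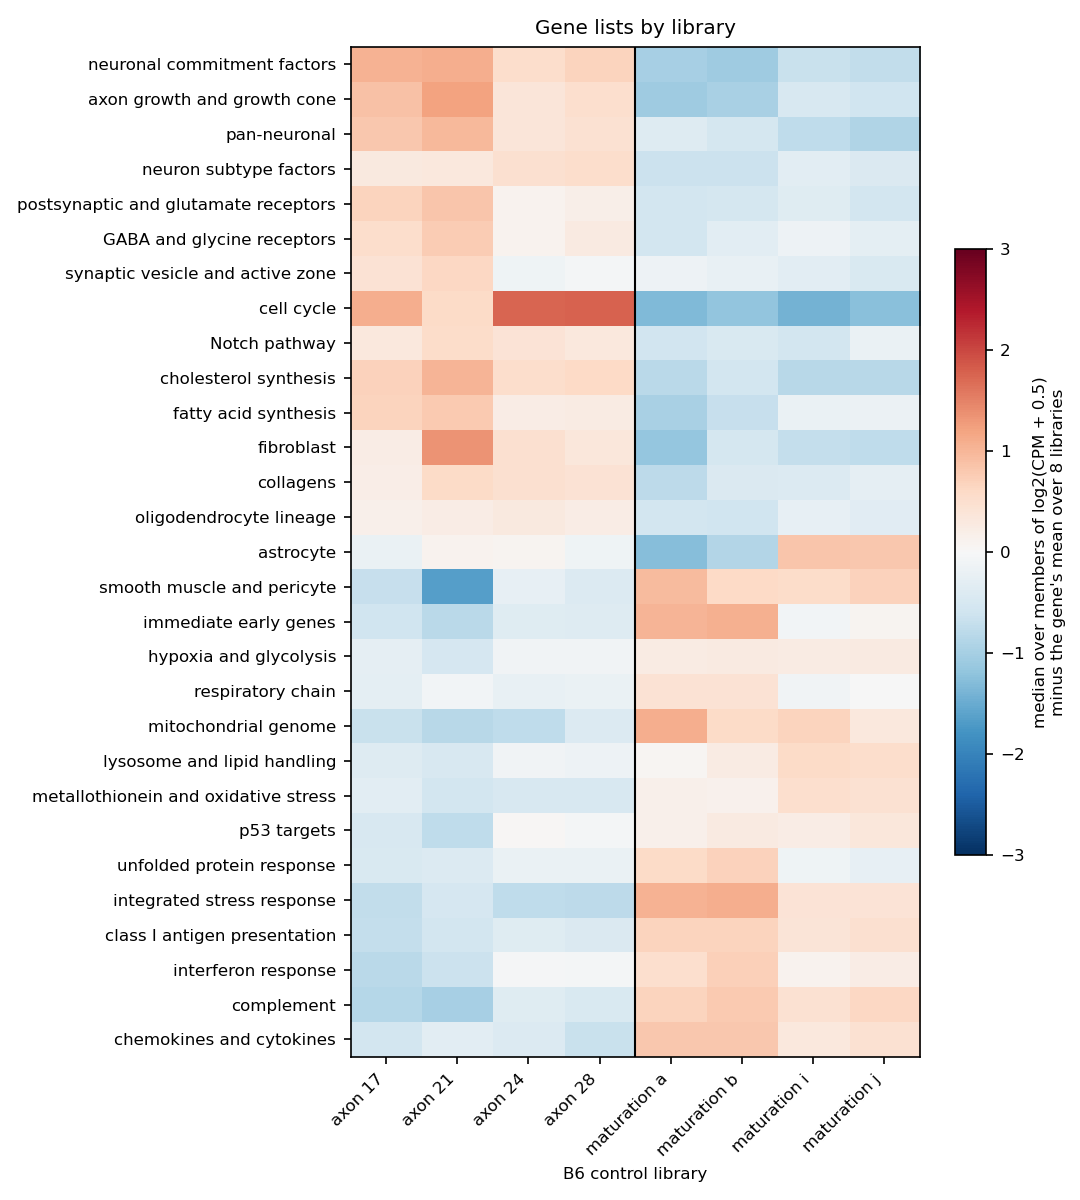
Median over the tested members of each of 29 lists of the log2 level, log2(CPM + 0.5), minus the gene's mean over the 8 libraries, with red for above and blue for below, axon libraries left of the black line and maturation libraries right. Rows such as axon growth, cholesterol synthesis and the mitochondrial genome have one sign in all 4 libraries of a stage, and astrocyte genes differ between the maturation pairs a with b and i with j.

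Activity-regulated genes were lower in B6 axon libraries, and most of these differences were not called with the library-number term. Of 24 immediate early genes 12 were lower and 1 higher. Fos, a subunit of the factor AP-1, had 34.2, 22.5, 42.6 and 39.3 CPM in axon libraries, against 116.4, 127, 65.1 and 129 CPM in maturation libraries, and Junb, its partner, differed by -2.24 ± 0.29. Bdnf, a neurotrophin made on activity, differed by -1.58 ± 0.23. In the fit with the library-number term 2 members were lower and 4 higher: Fos stood at 0.19, Junb at 0.15 and Bdnf at -1.73. Genes tied to axon regeneration in injured peripheral neurons were lower more often than higher, with 6 of 22 higher and 11 lower and a median of -1.39. Under the library-number term 4 were higher and 5 lower, with a median of 0.19. Atf3, the injury-induced factor, had 3.84, 4.62, 17.7 and 16 CPM in axon libraries, against 128, 129, 47.9 and 58.6 CPM in maturation libraries, and Sprr1a, a growth-promoting protein after nerve injury, had 0.162, 0, 0.185 and 0.295 CPM in axon libraries, against 8.22, 6.95, 4.05 and 2.87 CPM in maturation libraries. Sox11 and Klf7, transcription factors that promote axon growth in such neurons, were higher (2.27 and 0.92), as was Jun (0.49 ± 0.15). The call of Jun ended when any one of cultures 24, 28, i and j was left out, with 0.41 to 0.45 and adjusted p-values of 0.0514 to 0.06.

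Transcripts of the mitochondrial genome were lower at the axon stage. All 13 protein-coding genes were lower, with a median of -1.43, and all genes of the mitochondrial genome took a share of all counts that was 3.155 to 4.109% in axon libraries and 6.609 to 13.15% in maturation libraries. mt-Co1, of cytochrome oxidase, had 10310, 9167, 9854 and 10720 CPM in axon libraries, against 49740, 37190, 24830 and 19450 CPM in maturation libraries, and mt-Nd1, of complex I, averaged 2230 ± 256 CPM in axon libraries and 6245 ± 1375 CPM in maturation libraries. Stage and batch cannot be told apart in this share. The ribosomal RNA mt-Rnr2 averaged 2469 ± 570.2 CPM in axon libraries and 8258 ± 3545 CPM in maturation libraries, a difference of -1.74 ± 0.33. With the library-number term its difference was 2.95, while the 13 protein-coding genes stayed lower, with a median of -2.58.

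Nuclear genes of the respiratory chain moved less: 15 of 40 were lower and 0 higher, with a median of -0.45. Cycs, cytochrome c, differed by -0.94 ± 0.10, and Cox4i1, a subunit of cytochrome oxidase, by -0.83 ± 0.25, while Atp5a1 of the ATP synthase averaged 786 ± 38.1 CPM in axon libraries and 802 ± 100 CPM in maturation libraries. The call of Cox4i1 ended when any one of cultures 17, 28, a and b was left out, with -0.81 to -0.63 and adjusted p-values of 0.0528 to 0.0618. Genes of glycolysis and hypoxia were lower for 11 and higher for 3 of 27. Eno2, the neuronal enolase, had 214, 216, 164 and 188 CPM in axon libraries, against 725, 658, 525 and 504 CPM in maturation libraries. Vegfa, the hypoxia-induced vascular factor, differed by -1.99 ± 0.25, whereas Pdk1, which holds pyruvate from the mitochondrion, was higher (1.16 ± 0.17). Under the library-number term 10 of this list were higher and 1 lower, with Vegfa at 1.20 and Eno2 at -1.45.

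Astrocyte markers showed no common stage difference in B6 controls. Of 24, 3 were higher, 3 lower and 18 not called, and the summed level was 4720 to 5903 CPM in axon libraries and 2425 to 9661 CPM in maturation libraries. Gfap, the astrocyte intermediate filament, had 957, 1332, 787 and 628 CPM in axon libraries, against 200.1, 279.6, 1490 and 1673 CPM in maturation libraries. Cultures i and j lay above and a and b below all 4 axon libraries, and the difference was 0.02 ± 0.65 (adjusted p = 0.978). Aqp4, the water channel of astrocyte endfeet, had 343, 571, 305 and 275 CPM in axon libraries, against 157, 222, 1094 and 1158 CPM in maturation libraries. In WSB controls 10 astrocyte markers were higher and 1 lower, and in ID-8 cultures 2 and 10. Of 14 oligodendrocyte genes 8 were higher, with Pdgfra, the receptor of precursors, at 63.9 ± 34.8 CPM in axon libraries and 18.4 ± 8.05 CPM in maturation libraries and Mbp, myelin basic protein, at 33.4 ± 2.97 CPM in axon libraries and 16.4 ± 2.13 CPM in maturation libraries. Sox10, the lineage's defining factor, was below the filter on low counts.

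The same stage comparison was available in libraries that the B6 control comparison does not use. The ID-8 libraries are of the same strain and the same batches, 4 and 6, as the controls. Whether they share differentiations with the controls is not given in the labels. Their fibroblast sums were 2468, 9046, 3904 and 3560 in axon libraries, against 3150, 9259, 4393 and 4059 in the controls, in CPM of unscaled library totals. Shared calls are therefore not a separate repeat. In B6 cultures with ID-8, again of 4 libraries a stage, 6815 of 16477 genes were called (41.4%): 3489 were higher and 3326 lower in axon libraries. Of genes tested in both, 2525 were higher in both (64.6% of the B6 control calls and 74.4% of the ID-8 calls) and 2274 lower in both (62.5% and 70.2%). Calls in opposite directions numbered 11 for genes higher and 18 for genes lower in B6 controls. In WSB controls 6191 of 16087 were called (38.5%), with 3169 higher and 3022 lower. Here 2262 were higher in both (59.4% of the B6 calls and 72% of the WSB calls) and 1711 lower in both (47.4% and 58.7%), with 47 and 19 in opposite directions. The ID-8 libraries have the same split of library-number series as the controls, and 3 of the 4 WSB axon libraries do too.

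Dcx differed by 5.69 ± 0.24 in ID-8 cultures and 5.40 ± 0.48 in WSB controls, Mapt by 1.92 and 2.36, and Hmgcs1 by 1.63 and 2.50. Commitment factors were higher for 16 members in ID-8 cultures and 12 in WSB controls, and cell cycle genes for 25 and 21. The test between strains called 9 cell cycle genes with a lower axon minus maturation value in WSB. They include Ccnd1 and Ccnd2, which were more negative in WSB (-3.57 and -1.95) than in B6 (-1.26 and -0.42). For Cdk1 it was 1.43 ± 0.33 in WSB, and WSB minus B6 was -3.16 ± 0.57 (adjusted p = 0.00916). The difference between strains was called for 265 genes with a higher and 556 with a lower axon minus maturation value in WSB, 4.81% of 17086. With 1 of the 16 libraries left out, that count was 312 (without WSB maturation culture e) to 1297 (without WSB axon culture 13). Plin4 was among them, with a stage difference of -2.88 in WSB and -7.01 in B6. The fit with the library-number term called 7513 of 18543 genes (40.5%), with 3469 higher and 4044 lower in B6 axon libraries. It held the call of 2185 of the 3925 higher genes (55.7%) and 2170 of the 3708 lower genes (58.5%), and called 61 and 51 in the opposite direction.

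**Figure D5:**
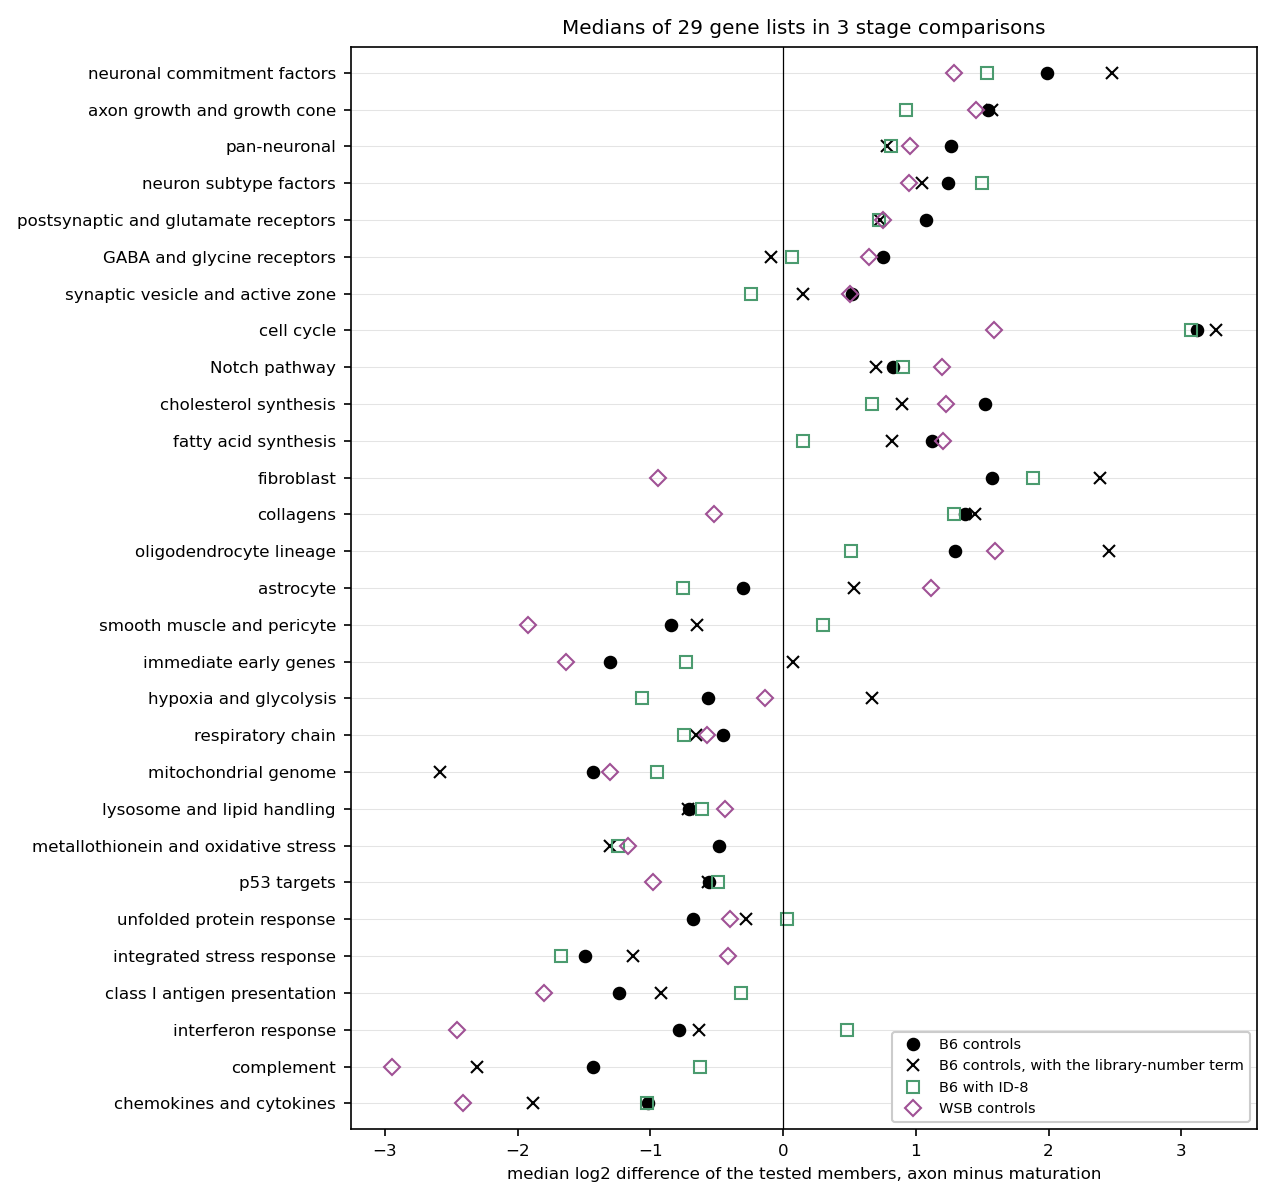
Median log2 difference (axon minus maturation) of the tested members of 29 lists in B6 controls (filled circles), B6 controls with the library-number term (crosses), B6 cultures with ID-8 (squares) and WSB controls (diamonds). Axon growth, commitment, cell cycle and cholesterol lists have medians above 0 in all 4 fits, while the fibroblast, interferon and immediate early gene lists are among those whose medians change sides.

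Dyrk1a, the kinase that ID-8 inhibits, had 124, 125, 109.6 and 114 CPM in axon libraries, against 113, 127, 133 and 140.5 CPM in maturation libraries. The stages overlapped, and the difference was -0.12 ± 0.11 (adjusted p = 0.384).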

How the data were processed

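The authors deposited 1 table of expected counts per gene, unscaled between libraries, in which 9.318% of values were not whole. Bowtie2, RSEM, featureCounts and limma with build GRCm38 are listed per the submitters' processing notes, and versions and annotation are not given in the sources used here. RSEM divides reads shared by paralogues by estimate, so close copies such as the tubulins are less certain. Runs of 1 library were summed (culture 28 here) and values rounded to whole counts. Axon libraries held 29300232 to 62173696 counts and maturation libraries 29810486 to 33562809, with no molecular identifiers. Replicates differed by more than repeat runs, with a chi-square per degree of freedom of at least 8.183, against 2.37 at most.

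The stages were compared in R 4.3.3 by the quasi-likelihood test of edgeR 4.0.16 (robust, TMM factors, filterByExpr), and p-values were adjusted over all tested genes by the Benjamini-Hochberg method. A called gene is one with an adjusted p below 0.05. ID-8 cultures, WSB controls and the interaction of stage with strain were tested alike. DESeq2 1.42.0 and limma 3.58.1 served as alternatives, and adjusted p-values are edgeR's unless another tool is named. On simulated data, drawn without the pairing of the real libraries, 6 of 15785 unchanged genes were called.

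The comparison, the 63 gene lists and the tests were chosen with earlier results of these data known. The rule for named genes took, among called genes with mean log2 CPM of 1 or more, at 2-fold or more and with a symbol that is no placeholder the 15 of smallest p and 6 of highest CPM per direction, up to 6 of smallest p per list, cell type markers and Dyrk1a. Members named as exceptions, as relatives of a named gene, for the largest difference or for lacking a call were added after their values were seen. Some genes that the rule takes are not reported here. Coordinates are those of GRCm38 in the reference annotation, and promoters show 150 of the 250 bases before a start in RefSeq's table.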

Additional observations from a re-analysis of the deposited data

Results flagged for a closer look

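Chance alone puts about 1 in 20 groups of 4 libraries past the limit used for a library that stands apart, and 19 of 378 gene and stage pairs (5.03%) did so among the genes named here. In axon culture 21 the matrix genes were high: Col1a1 had 2671 CPM in culture 21 and 623 to 795 CPM in the other 3, Col3a1 had 3370 CPM in culture 21 and 1054 to 1199 CPM in the other 3, and Col6a3 had 242 CPM in culture 21 and 32.8 to 40.8 CPM in the other 3. The same culture stood apart in 6 further genes. Among them Cdh5 had 14.2 CPM in culture 21 and 67.7 to 69.7 CPM in the other 3, Sox2 had 48.4 CPM in culture 21 and 88.3 to 94.5 CPM in the other 3, and Trf had 33.8 CPM in culture 21 and 7.18 to 10.9 CPM in the other 3. Likewise Fdps had 356 CPM in culture 21 and 204 to 222 CPM in the other 3, Bhlhe41 had 15.7 CPM in culture 21 and 10.9 to 11.3 CPM in the other 3, and Nqo1 had 19 CPM in culture 21 and 8.89 to 10.2 CPM in the other 3. Culture 17 stood apart in 5 genes: Bdnf had 36.1 CPM in culture 17 and 19.5 to 21.1 CPM in the other 3, C1s1 had 17.7 CPM in culture 17 and 28.4 to 29.8 CPM in the other 3, and Crabp1 had 23.9 CPM in culture 17 and 33.9 to 35.7 CPM in the other 3. For the others, Kit had 112 CPM in culture 17 and 143 to 148 CPM in the other 3, and Aldh1a1 had 9.08 CPM in culture 17 and 7.73 to 7.86 CPM in the other 3. Culture 24 did so in 2 genes, as Chchd10 had 41.4 CPM in culture 24 and 37 to 37.3 CPM in the other 3, and Nefh had 55.4 CPM in culture 24 and 61.4 to 62.4 CPM in the other 3. Among maturation libraries C1ra had 54.9 CPM in culture a and 77.9 to 81.8 CPM in the other 3, Mcm6 had 6.5 CPM in culture a and 8.54 to 8.61 CPM in the other 3, and Tek had 1.07 CPM in culture j and 0.423 to 0.52 CPM in the other 3.

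The axon minus maturation difference was tested between strains with an interaction term in edgeR, and 24 named genes passed at an adjusted p under 0.05. Of matrix and vascular genes, Col1a1 differed by -0.83 in WSB and 3.13 in B6 (WSB minus B6 -3.96), Col1a2 differed by -0.80 in WSB and 3.29 in B6 (WSB minus B6 -4.09), and Col4a1 differed by -0.96 in WSB and 1.95 in B6 (WSB minus B6 -2.90). In the same order of strains Cdh5 differed by -2.02 in WSB and 2.36 in B6 (WSB minus B6 -4.38), Tek differed by 0.35 in WSB and 4.42 in B6 (WSB minus B6 -4.08), and Rgs5 differed by -0.70 in WSB and 1.83 in B6 (WSB minus B6 -2.54). Of cell cycle genes, Cdk1 differed by 1.43 in WSB and 4.59 in B6 (WSB minus B6 -3.16), Top2a differed by 3.24 in WSB and 5.87 in B6 (WSB minus B6 -2.63), and Cdc20 differed by 1.62 in WSB and 3.99 in B6 (WSB minus B6 -2.37). Of the D cyclins and a polymerase subunit, Ccnd1 differed by -3.57 in WSB and -1.26 in B6 (WSB minus B6 -2.31), Ccnd2 differed by -1.95 in WSB and -0.42 in B6 (WSB minus B6 -1.53), and Pole differed by 1.23 in WSB and 2.67 in B6 (WSB minus B6 -1.43). Of neuronal genes, Pou4f2 differed by 1.28 in WSB and 3.97 in B6 (WSB minus B6 -2.69) and Glra2 differed by 1.09 in WSB and 2.61 in B6 (WSB minus B6 -1.52), while Gjd2 differed by 2.05 in WSB and 3.50 in B6 (WSB minus B6 -1.44) and Grm3 differed by 1.65 in WSB and 3.60 in B6 (WSB minus B6 -1.95). Of immune and redox genes, C3 differed by -3.95 in WSB and -8.60 in B6 (WSB minus B6 4.66), C1ra differed by -3.73 in WSB and -2.14 in B6 (WSB minus B6 -1.59), Isg15 differed by -5.59 in WSB and -1.40 in B6 (WSB minus B6 -4.21), and Nqo1 differed by -2.21 in WSB and -0.49 in B6 (WSB minus B6 -1.72). The remaining values of WSB minus B6 were 4.11 for Plin4, -2.04 for Anxa1, -2.36 for Igf2 and -3.26 for Slc40a1. The cause of these differences was not tested.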

How the results depend on the processing

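No paired analysis was possible because the labels of the B6 axon libraries (cultures 17, 21, 24 and 28) and maturation libraries (a, b, i and j) share no replicate number. Under RLE or TMMwsp factors, no filter on low counts, DESeq2, limma-voom, first runs only, a correction for GC content and length, either library pair of a stage, or no mitochondrial genes (the axon pairs and the last were also added after seeing the data), the called genes numbered 5898 to 9047, against 7633. Summing maturation cultures a with b and i with j, an alternative chosen after seeing the data, left 5010 called genes (2622 higher and 2388 lower), with 2 summed maturation libraries. Named genes that lost their call there were Col4a1, Cplx1, Jun, Kdr, Map1b, Map2, Nes, Pdgfra, Pdgfrb and Scd2, with adjusted p-values of 0.0573 to 0.151. Requiring a 2-fold difference left 4088 (2232 higher and 1856 lower). With each replicate left out in turn, 6259 to 7290 genes were called (3311 to 3734 higher and 2948 to 3556 lower). In ID-8 cultures the range was 5526 to 6960 (2910 to 3507 higher and 2589 to 3453 lower). In WSB controls it was 4424 to 7500 (2208 to 3722 higher and 2216 to 3778 lower). The strain difference ranged most widely of these 4 counts: 312 to 1297 (62 to 537 higher and 250 to 787 lower), against 821. DESeq2 called 1812 genes there (710 higher and 1102 lower), and without the filter 124 were higher. The causes of these shifts were not tested.

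Of the 159 called genes named here, 153 held the call with each replicate left out. The exceptions were Col4a1, Cox4i1, Jun, Map2, Pdgfrb and Scd2, for which the libraries are named above. With the library-number term 125 of the 159 were called in the same direction and 153 had the same sign. The sign turned for Fn1 (0.40), Fos (0.19), Junb (0.15), Nr1d1 (0.16), Vegfa (1.20) and mt-Rnr2 (2.95). Aqp4 was 0.98 (adjusted p = 0.0465) against maturation cultures a and b only and -1.60 (adjusted p = 0.00687) against i and j only. Slc7a11 was -0.69 (adjusted p = 0.0286) with axon cultures 24 and 28 only and 0.94 (adjusted p = 0.00701) with 17 and 21 only, alternatives added after seeing the data. How depth limits single genes was not tested. In simulated data with 4 libraries a stage 40 of 50 genes raised 4-fold and 21 of 50 raised 2-fold were called. The simulated libraries were drawn independently, with few genes changed. The real libraries stand in pairs and many genes were called, so these counts do not carry over to them.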

Other observations

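Signals between cells and positional genes were not covered by the comparison above. Of 24 axon guidance cues 11 were higher and 3 lower in axon libraries, with a median of 0.83. Efnb3, an ephrin of the spinal midline, had 222, 238, 238 and 229 CPM in axon libraries, against 18.3, 19.1, 28.8 and 30.6 CPM in maturation libraries, a difference of 3.26 ± 0.20. Sema6a, a transmembrane semaphorin, differed by 1.62 ± 0.18, whereas the secreted Sema3b was lower (-1.19 ± 0.26). Growth factors had no common direction, with 7 of 30 higher and 9 lower, against 24.3% and 23% of all tested genes. Ptn, the heparin-binding factor pleiotrophin, had 188, 336, 148 and 133 CPM in axon libraries, against 16.7, 18.4, 14.2 and 11.6 CPM in maturation libraries, and Igf2, an insulin-like growth factor, averaged 643 ± 234 CPM in axon libraries and 122 ± 32.9 CPM in maturation libraries. Fgf1, a fibroblast growth factor, and Hbegf, a ligand of the EGF receptor, were lower (-2.83 ± 0.29 and -2.21 ± 0.43).

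Hox genes, which set position along the hindbrain and spinal cord, were higher for 11 and lower for 0 of 24 tested members. The 11 were all of paralogue groups 1 to 5, such as Hoxc4 (1.52 ± 0.17) and Hoxb5 (1.62 ± 0.26). Members of later groups were not called and ranged from -0.79 (Hoxd9) to 1.93 (Hoxa6). Among them Hoxb7 differed by 1.24, Hoxb8 by 1.28 and Hoxb9 by -0.70 ± 1.09, so the calls set no boundary between groups. The list median of log2 levels minus each gene's mean was 0.81 in axon culture 24 and 0.89 in culture 28. It was 0.12 in culture 17 and -0.6 in culture 21, against -0.54 to -0.16 in maturation libraries. Of 15 retinoic acid genes 7 were higher and 3 lower. Aldh1a2 and Aldh1a3, which make retinoic acid as Aldh1a1 does, were higher (2.77 ± 0.23 and 3.17 ± 0.36), against the -4.88 of Aldh1a1. Crabp1, which binds it in the cytosol, averaged 32.2 ± 5.6 CPM in axon libraries and 1.8 ± 0.854 CPM in maturation libraries. Among neuropeptide genes 4 of 22 were higher and 4 lower, smaller shares than the 24.3% and 23% of all tested genes. Sst, somatostatin, averaged 75.1 ± 6.29 CPM in axon libraries and 23.3 ± 12.8 CPM in maturation libraries, and Nts, neurotensin, averaged 2.14 ± 1.61 CPM in axon libraries and 44.5 ± 32.5 CPM in maturation libraries.

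Several clock genes and iron genes were looked up after their values had been seen. Per1, a period gene, differed by -1.87 ± 0.25, Nr1d2 by -1.95 ± 0.26 and Bhlhe41, a clock repressor, by -2.36 ± 0.15. With the library-number term they stood at -0.56, -2.34 and -1.65. Cp, the ferroxidase ceruloplasmin, differed by -3.42 ± 0.38, Trf, transferrin, by -2.83 ± 0.51, and Slc40a1, the iron exporter ferroportin, by 1.96 ± 0.24.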
